A study of Mus musculus with 4 samples.

Results

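Histone acetylation is written, read and removed by separate protein families, and 44 of their genes were followed here in LSK cells of the fetal liver, with and without Brpf1. LSK cells lack lineage markers, carry Sca-1 and Kit on their surface, and include the blood stem cells and multipotent progenitors. The 44 genes were chosen by symbol from the 20207 genes of the deposited tables. Their values were not used for the choice, but earlier results of these data were known when it was made. Cells came from mouse fetal livers at E14.5, and the groups were wildtype and Brpf1-null, with 2 samples each, every sample a pool of cells from 4 embryos. The labels name neither the allele nor what drives its deletion. The 2 deposited tables, 1 per pair of samples, held the same value for every gene, so they were read as 1 library per genotype (n = 1). No difference below has a replicate check, and p-values were not computed.

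Acetyl groups on histone tails loosen the hold of DNA on the nucleosome and are bound by bromodomains. The acetyltransferases that place them fall into the MYST family (Myst1, also called MOF; Myst2, HBO1; Myst3, MOZ; Myst4, MORF; and Kat5, TIP60), the GCN5 family (Kat2a and Kat2b), the CBP and p300 pair (Crebbp and Ep300) and others such as Hat1. BRPF1 is a scaffold that joins MOZ, MORF or HBO1 to an ING protein and MEAF6, and MOZ is required for fetal blood stem cells. The zinc-dependent deacetylases (HDACs) and the NAD-dependent sirtuins remove the mark, many of them as subunits of corepressor complexes.

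Most of the 37 genes that passed the filter on level given below were at similar levels in both libraries. The exceptions among the 37 were 3 deacetylases, 1 bromodomain reader and 2 acetyltransferase subunits. Levels are in RPKM, reads scaled to transcript length and sequencing depth, and are compared between genes on that scale. Of the 44 genes, 37 had a mean of at least 1 RPKM over both libraries, and 7 lay below it (Myst3, Myst4, Ep300, Brpf3, Phf16, Hdac9 and Hdac11). On these low values, the plain RPKM ratio was more than 1.5-fold higher in the Brpf1-null library for Myst3, Hdac9 and Hdac11. For Brpf3 it was more than 1.5-fold lower. A gene is called higher or lower below when log2((Brpf1-null RPKM + 1)/(wild-type RPKM + 1)) passed 1.5-fold. That log2 change understates the change of low genes. Of the 37 genes, 5 were higher in the Brpf1-null library (Hdac8, Hdac10, Brd2, Hdac5 and Phf15), 1 was lower (Ing3) and 31 lay within 1.5-fold. Over the 9380 genes of the whole table that passed the same filter, 14.1% were higher and 9.42% lower by the same rule, beside 13.5% and 2.70% of the 37, so the count of higher genes was near the background. The same 5 and 1 genes were called when the counting interval also had to exclude equal levels (14.0% and 9.25% of all genes). Without a pseudocount 6 members were higher, with Kat5 added, and 3 lower, with Crebbp and Hdac4 added (19.2% and 12.8% of all genes). The median log2 change of the 37 genes was 0.03, beside 0.04 for all 9380 genes. Hdac8 and Phf15 were under 1 RPKM in wild-type cells and passed the filter on low values through the Brpf1-null library, in which they were higher.

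**Figure D1:**
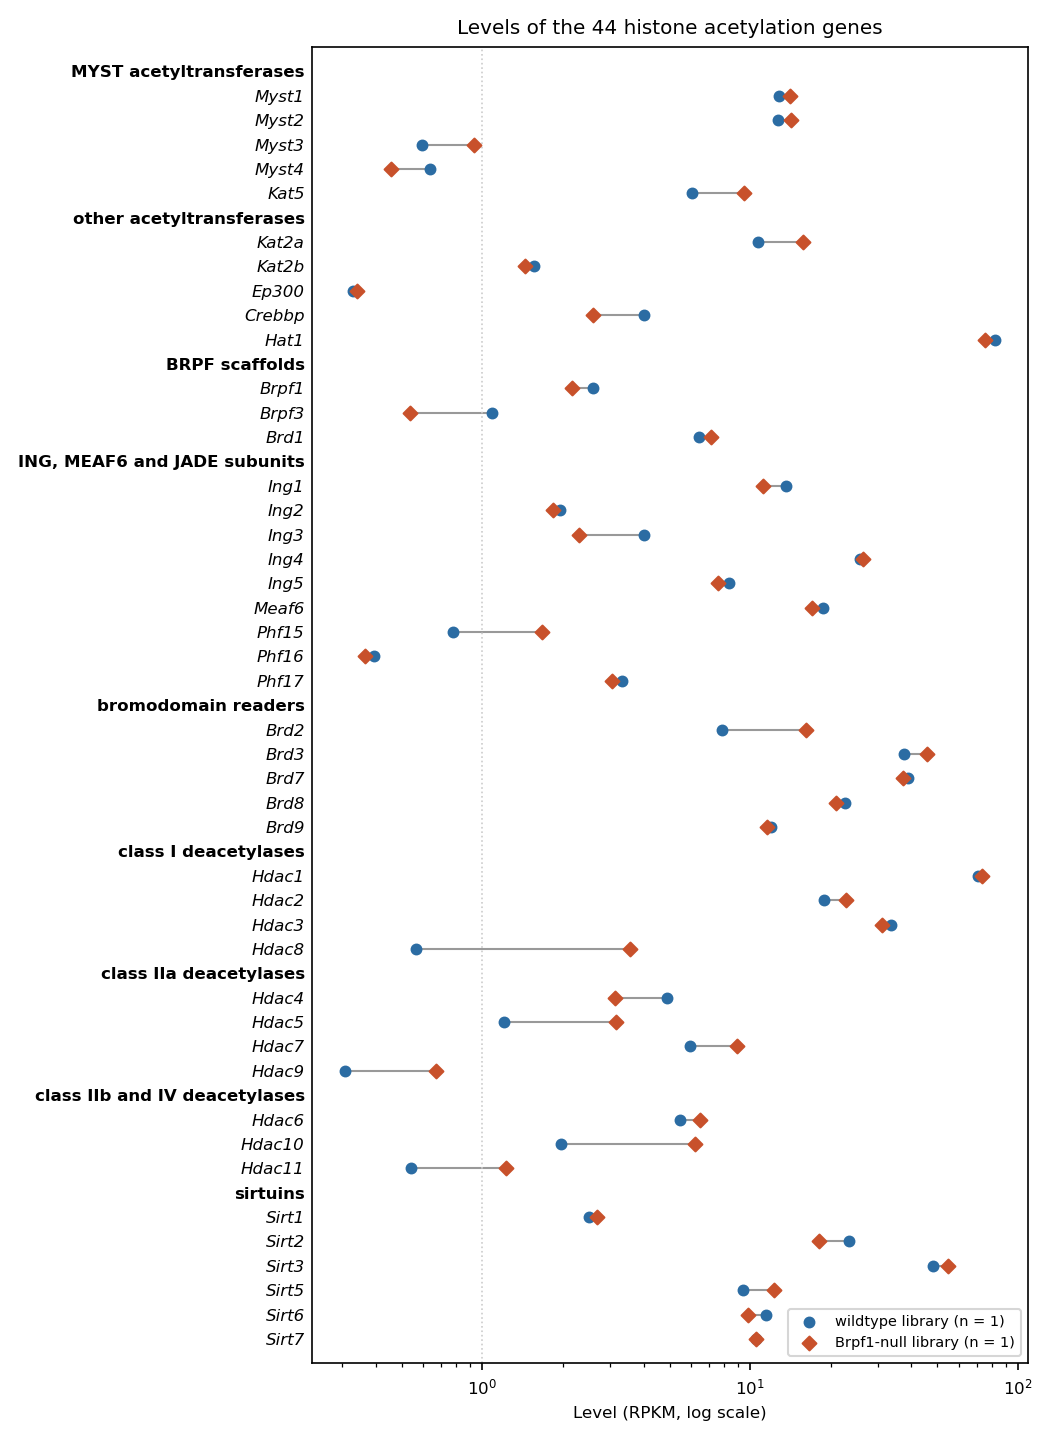
Level of each of the 44 genes in RPKM on a log scale, grouped by role, with the wildtype library as circles and the Brpf1-null library as diamonds (n = 1 each, no error bars). Most pairs of points nearly coincide, as for Hdac1 at 71.0 and 73.6 RPKM, while Hdac8 spans 0.564 to 3.55 RPKM; the dotted line marks 1 RPKM.

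A fold given below is the plain ratio of the RPKM values, with its 95% counting interval behind it. Bounds are by the exact (Clopper-Pearson) method for the share of a gene's reads that came from Brpf1-null cells. Reads were estimated from the RPKM, the transcript length and library sizes of about 23655403 (wild-type) and 22226046 (Brpf1-null) reads. Lengths of the members are median GENCODE M21 lengths, while the annotation behind the RPKM is not named, so reads and bounds are approximate. Such bounds hold counting error alone: how far pools of embryos differ from each other is not in them, and PCR copies of a molecule count as separate reads.

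Brpf1 itself had 2.59 RPKM in wild-type and 2.15 RPKM in Brpf1-null cells, from about 285 and 223 reads, and was thus 1.2-fold lower (1.00 to 1.44). The gene (GRCm38 chr6:113307137-113324860, plus strand) has a single value per library, and that value does not show whether a part of the transcript was deleted. The paralogous scaffold gene Brd1, also called Brpf2, was at 6.44 and 7.14 RPKM, the most abundant of the BRPF genes in both libraries. Brpf3 was at 1.08 and 0.535 RPKM, 2.03-fold lower (1.56 to 2.66), but its mean was under 1 RPKM and its log2 change with the pseudocount was −0.44. The summed level of these 3 genes was 10.1 RPKM in wild-type and 9.83 RPKM in Brpf1-null cells.

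None of the 7 acetyltransferase genes that passed the filter was past 1.5-fold with the pseudocount. By the plain ratio, Kat5 was past it upwards and Crebbp downwards. Among the MYST enzymes, Myst1, the catalytic subunit for H4K16 acetylation, was at 12.9 RPKM in wild-type and 14.1 RPKM in Brpf1-null cells. Myst2, a BRPF1 partner that also works with JADE scaffolds, was at 12.7 and 14.2 RPKM, 1.12-fold higher (1.03 to 1.22). The other BRPF1 partners were low: Myst3 was at 0.593 and 0.932 RPKM, and Myst4 at 0.636 and 0.456 RPKM. Their counting intervals excluded equal levels in opposite directions, 1.57-fold higher (1.25 to 1.99) for Myst3 and 1.4-fold lower (1.02 to 1.92) for Myst4. Kat5, the catalytic subunit of the TIP60 complex, was at 6.06 and 9.45 RPKM, 1.56-fold higher (1.34 to 1.82). With the pseudocount its log2 change was 0.57, just inside the threshold. Exons of Kat5 overlap those of the opposite-strand gene Rnaseh2c over 426 of 3509 bases in GENCODE M21, and Rnaseh2c was at 32.2 and 30.2 RPKM. The sources used here do not say how reads in such overlaps were assigned.

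Outside the MYST family, Hat1, which acetylates newly made histone H4, was the most abundant acetyltransferase gene, at 82.3 and 75.0 RPKM. It supplied 62.5% of the summed RPKM of the 10 acetyltransferase genes in the wild-type library and 55.9% in the Brpf1-null library. The GCN5 gene Kat2a was at 10.7 and 15.8 RPKM, 1.48-fold higher (1.35 to 1.62), and its paralog Kat2b (PCAF) at 1.56 and 1.44 RPKM. Crebbp, the gene of the coactivator CBP, was at 4.0 and 2.59 RPKM, 1.54-fold lower (1.4 to 1.71), with a log2 change of −0.48. It passed the threshold once the library medians were set equal (−0.59). Its paralog Ep300 was at 0.329 and 0.339 RPKM, and an interval of 0.738 to 1.45 around its 1.03-fold ratio left no difference detectable at this depth. The summed level of all 10 acetyltransferase genes was 132 RPKM in wild-type and 134 RPKM in Brpf1-null cells.

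Of the 8 ING, MEAF6 and JADE genes that passed the filter, 1 was higher (12.5%), 1 was lower (12.5%) and 6 lay within 1.5-fold. These shares stand beside 14.1% higher and 9.42% lower over all genes. The higher gene, Phf15, passed the filter through the Brpf1-null library. Ing5 and Meaf6, which encode the subunits that BRPF1 brings to MOZ and MORF, were at 8.37 and 7.58 RPKM and at 18.6 and 17.1 RPKM. Ing4, a subunit of HBO1 complexes, was the most abundant ING gene, at 25.8 and 26.4 RPKM. Exons of Ing4 overlap those of the same-strand gene Gm44597 over 1855 of 5320 bases. Ing1 and Ing2, subunits of the SIN3 deacetylase complex, were at 13.7 and 11.1 RPKM and at 1.95 and 1.84 RPKM.

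Ing3, a subunit of the TIP60 complex that reads methylated H3K4, was the lower gene. It had 4.01 RPKM in wild-type and 2.29 RPKM in Brpf1-null cells, 1.75-fold lower (1.45 to 2.14), from about 301 and 161 reads. Its log2 change was −0.61, and −0.42, no longer past the threshold, once the trend on GC content was removed. The 250 bases upstream of the Ing3 start (GRCm38.p6, chr6:21949321-21949570, plus strand, RefSeq) are shown because Ing3 was the only one of the 37 past the threshold downwards, with CCAAT and GC box (GGGCGG) letters, on either strand, in capitals.
Ing3: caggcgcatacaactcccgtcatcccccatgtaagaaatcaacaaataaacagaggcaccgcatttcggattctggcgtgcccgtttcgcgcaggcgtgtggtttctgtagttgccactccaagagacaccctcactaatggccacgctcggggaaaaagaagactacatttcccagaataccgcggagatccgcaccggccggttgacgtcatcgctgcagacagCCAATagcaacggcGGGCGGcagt

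Of the JADE scaffolds, which direct HBO1 to histone H4, Phf15 (JADE2) was at 0.776 and 1.67 RPKM, 2.15-fold higher (1.70 to 2.70). Its log2 change of 0.59 lay on the threshold, and it was 0.40 with the GC trend removed and 0.48 after centring. Phf17 (JADE1) was at 3.32 and 3.05 RPKM, and Phf16 (JADE3) at 0.393 and 0.364 RPKM. Phf17 thus remained the most abundant JADE gene in both libraries.

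Among the 5 bromodomain readers, Brd2 was higher (20%, beside 14.1% of all genes). The 4 others (Brd3, Brd7, Brd8 and Brd9) were within 1.5-fold. Brd2 and Brd3 encode BET proteins, which carry acetylated chromatin's signal to the transcription machinery. Brd2 had 7.86 RPKM in wild-type and 16.1 RPKM in Brpf1-null cells, 2.05-fold higher (1.89 to 2.23), from about 840 and 1620 reads. Of the members called with the pseudocount, Brd2 alone had at least 5 RPKM in both libraries. Its log2 change was 0.95, at percentile 95.2 of the 9380 genes. Its exons overlap those of the opposite-strand gene H2-DMa over 360 of 7826 bases, and H2-DMa was at 52.2 and 53.3 RPKM. Brd3 was at 37.4 and 45.7 RPKM, 1.22-fold higher (1.17 to 1.27). Brd7 and Brd9, subunits of SWI/SNF remodellers, were at 38.9 and 37.3 RPKM and at 11.9 and 11.6 RPKM, and the TIP60 subunit gene Brd8 at 22.7 and 20.9 RPKM.

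The deacetylase genes held the highest ratios. Of the 9 zinc-dependent deacetylase genes that passed the filter, 3 were higher and 0 lower, beside 14.1% and 9.42% of all genes. Each of the 3 belonged to a different class. The 0 depends on the setting, since Hdac4 was called lower in 5 alternative settings, among them the one without a pseudocount. Hdac8 is counted here although it passed the filter through the Brpf1-null library, in which it was higher, so the count leans towards higher genes. Hdac8, a class I deacetylase known for deacetylating the cohesin subunit SMC3, had 0.564 RPKM in wild-type and 3.55 RPKM in Brpf1-null cells. It was 6.29-fold higher (4.11 to 9.89), from about 26 and 153 reads, and its log2 change of 1.54 was at percentile 99.4 of the 9380 genes. Hdac10, a class IIb enzyme known as a polyamine deacetylase, was at 1.97 and 6.21 RPKM, 3.15-fold higher (2.56 to 3.92), at percentile 98.5. Hdac5, a class IIa corepressor of MEF2 factors, was at 1.2 and 3.17 RPKM, 2.63-fold higher (2.09 to 3.31), at percentile 94.7.

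**Figure D2:**
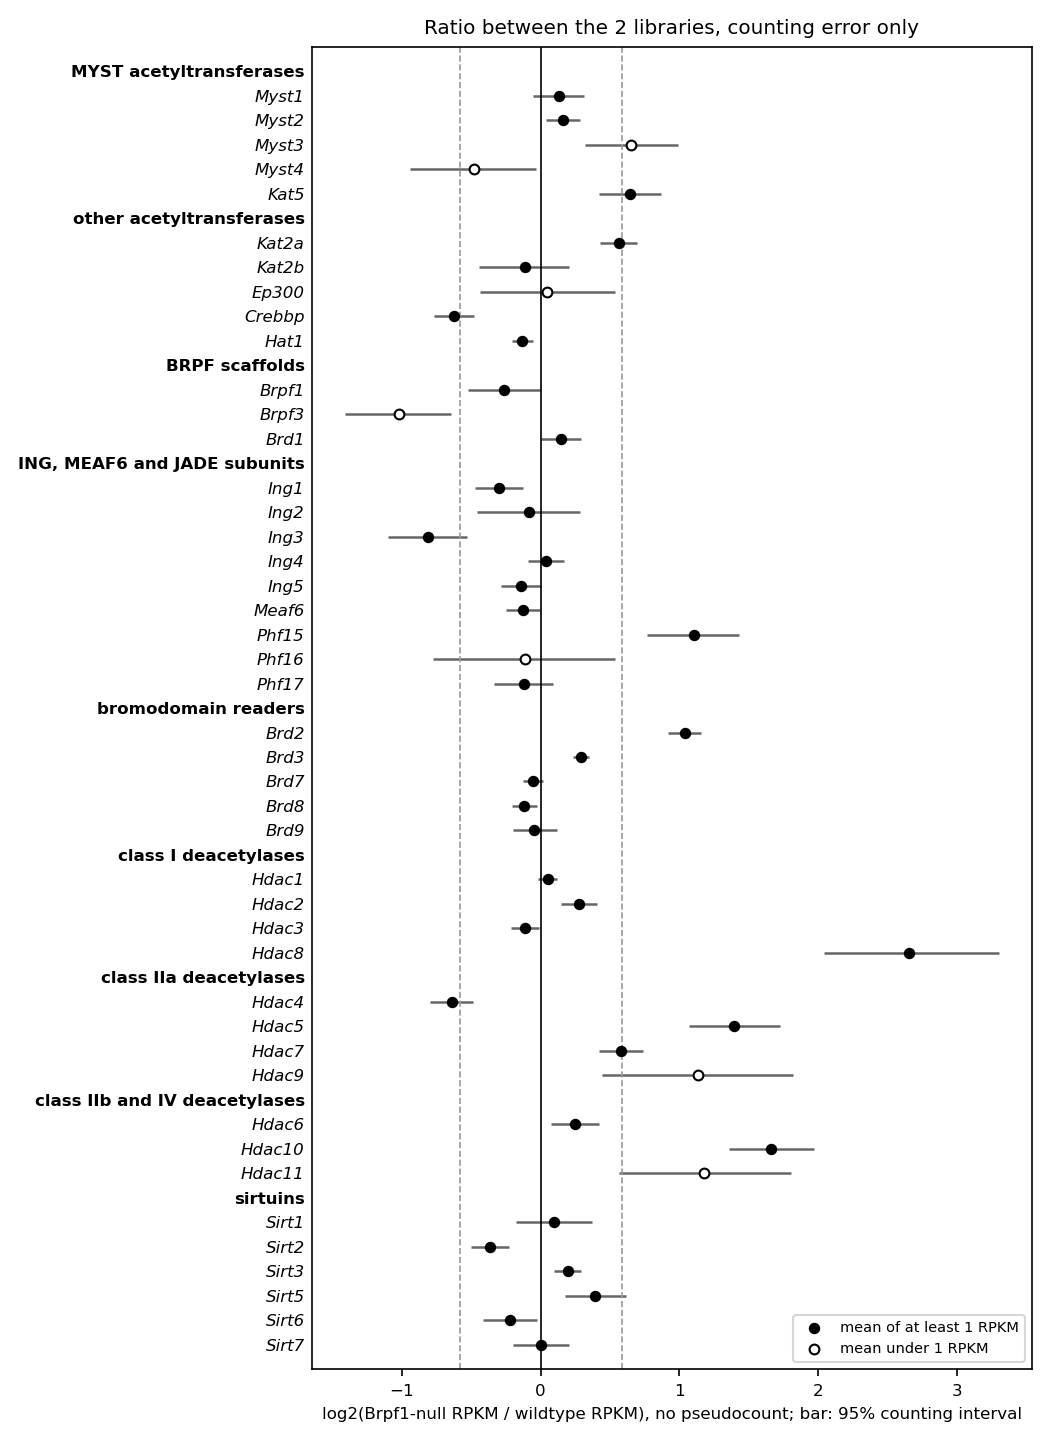
Ratio of Brpf1-null to wildtype RPKM of each of the 44 genes on a log2 scale without a pseudocount, with the 95% counting interval as a bar (n = 1 library each); filled points passed the filter of 1 RPKM, and dashed lines mark 1.5-fold. Hdac8 lies farthest to the right, at 6.29-fold, and Brpf3, an open point, farthest to the left, at 2.03-fold lower.

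The abundant class I genes lay within 1.5-fold. Hdac1 was at 71.0 and 73.6 RPKM, a ratio of 1.04 (0.987 to 1.09), and its log2 change of 0.05 turned to −0.06 after centring. Hdac2 was at 18.8 and 22.8 RPKM, 1.21-fold higher (1.11 to 1.33), and Hdac3, the NCoR-bound deacetylase, at 33.5 and 31.0 RPKM, 1.08-fold lower (1.01 to 1.16). Hdac1 made up 49.2% of the summed RPKM of the 11 zinc-dependent deacetylase genes in wild-type cells and 45.8% in Brpf1-null cells. Hdac8 made up 0.391% and 2.21%, and Hdac10 1.36% and 3.86%. The sum itself was 144 RPKM in wild-type and 161 RPKM in Brpf1-null cells, so the genes with the highest ratios remained a small share of deacetylase transcripts.

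The class IIa genes, whose products shuttle between nucleus and cytoplasm, went both ways. Hdac7, the most abundant of them, had 5.98 RPKM in wild-type and 8.95 RPKM in Brpf1-null cells, a ratio with bounds of 1.34 and 1.67 that lay just inside 1.5-fold with and without a pseudocount. Hdac4 was at 4.88 and 3.13 RPKM, 1.56-fold lower (1.41 to 1.74), with a log2 change of −0.51 that passed the threshold after centring (−0.62), after quantile normalization (−0.61) and with the GC trend removed (−0.61). Hdac9 was at 0.306 and 0.672 RPKM, from about 28 and 57 reads. Hdac4 was thus above Hdac5 in wild-type cells, while in Brpf1-null cells the paralogs stood at 3.13 and 3.17 RPKM. Of the MEF2 partners, Mef2c and Mef2d passed the filter, and both lay within 1.5-fold.

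The 250 bases upstream of the Hdac5 start (GRCm38.p6, chr11:102230173-102230422, minus strand, RefSeq) are shown as the one window among the higher genes that holds at most 30 bases of protein-coding exon in GENCODE M21. CCAAT and GC box letters, on either strand, are in capitals.
Hdac5: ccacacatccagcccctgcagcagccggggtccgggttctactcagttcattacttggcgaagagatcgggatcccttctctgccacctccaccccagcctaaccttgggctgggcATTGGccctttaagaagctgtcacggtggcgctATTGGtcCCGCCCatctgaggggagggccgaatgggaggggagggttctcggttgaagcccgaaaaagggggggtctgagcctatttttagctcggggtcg
RefSeq windows were given for 38 of the 44 genes, 4 of them past 1.5-fold. The Hdac5 window held 12 CpG dinucleotides and the Ing3 window 21, beside a median of 19.5 over the 38 windows and 6 over the windows of all 27025 genes, noncoding genes included. The Hdac8 window held 6 and the Brd2 window 27, but 201 and 63 of their 250 bases were exon. GGGCGG was found, on either strand, in 27 of the 38 windows (33.0% of all windows), CCAAT in 15 (34.5%) and the ETS letters CCGGAAG in 10 (7.07%). CACGTG was in 3 (6.04%), TATAAA in 2 (13.0%) and the palindromic NRF1 motif in 2 (0.777%), the Brd2 and Sirt6 windows. In the 4 windows of called genes GGGCGG was in 2 and CCAAT in 3. Such matches are descriptions of these letters and not of binding.

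Of the class IIb and IV genes, Hdac6, the cytoplasmic tubulin deacetylase, was at 5.46 and 6.48 RPKM, 1.19-fold higher (1.06 to 1.34). Hdac11, the class IV enzyme, was at 0.542 and 1.23 RPKM, 2.26-fold higher (1.48 to 3.50) from about 34 and 72 reads, with a mean under 1 RPKM. The summed level of the 7 class IIa, IIb and IV genes was 20.3 RPKM in wild-type and 29.8 RPKM in Brpf1-null cells, 1.47 times as high. Of the 5 genes among them that passed the filter, Hdac5 and Hdac10 were higher and 3 lay within 1.5-fold with the pseudocount. By the same rule 14.1% of all genes were higher and 9.42% lower. Hdac4, among those 3, was 1.56-fold lower by the plain ratio.

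All 6 sirtuin genes among the members passed the filter and lay within 1.5-fold. Sirt4, listed with the genes of acetyl-CoA supply, was not matched to a symbol and has no value here. Sirt3, the main mitochondrial deacetylase, was the most abundant, at 48.0 and 55.0 RPKM, 1.15-fold higher (1.07 to 1.23). Its exons overlap those of the opposite-strand proteasome gene Psmd13 over 342 of 5973 bases, and Psmd13 was at 17.3 and 68.3 RPKM. They also overlap the opposite-strand gene Ric8a over 418 bases, which was not found by that symbol. Sirt2, a largely cytoplasmic enzyme, was at 23.4 and 18.1 RPKM, 1.29-fold lower (1.17 to 1.42), and Sirt5, a mitochondrial desuccinylase, at 9.37 and 12.3 RPKM, 1.31-fold higher (1.13 to 1.53). The chromatin-bound Sirt6 was at 11.5 and 9.85 RPKM and the nucleolar Sirt7 at 10.5 and 10.6 RPKM. Exons of Sirt7 overlap those of the same-strand gene Mafg over 124 of 5148 bases, and Mafg was at 7.09 and 3.83 RPKM. Sirt1, which deacetylates p53, was at 2.51 and 2.69 RPKM, a difference not detectable at this depth (0.886 to 1.29).

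**Figure D3:**
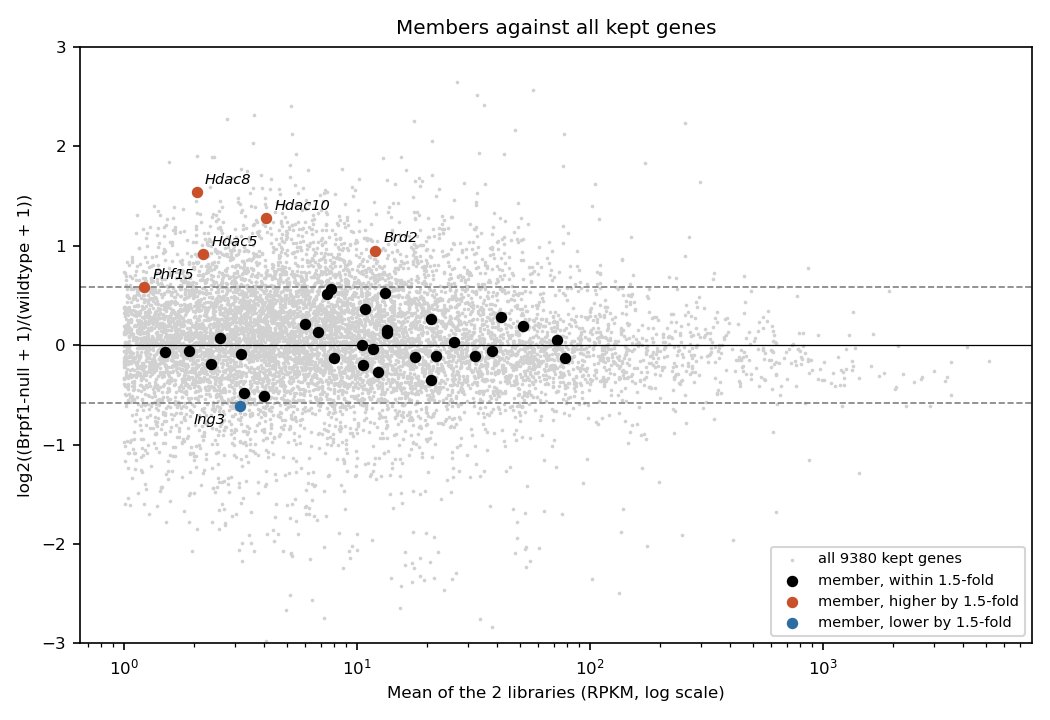
log2 change with a pseudocount of 1 against the mean of both libraries (RPKM, log scale) for the 9380 genes past the 1 RPKM filter (grey) and the 37 members (n = 1 library each); dashed lines mark 1.5-fold, and 6 genes lie outside the plotted range. The 5 higher members sit at a mean between 1.22 and 12 RPKM, and Hdac1 and Hat1, the most abundant members, lie near 0.

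The ratio between these libraries moved with transcript GC content over all genes, and the called members followed it in part. Across 9257 genes with a transcript length the log2 change and GC content had a Spearman rho of 0.292, and across the 37 members 0.344; genes share the same libraries and are not independent replicates. The 5 higher members had a median transcript GC content of 56.6%, the 31 within 1.5-fold 50.9%, and Ing3 41.8%. Hdac8 had 48.7%, below the median of 50.3% over all those genes, and its log2 change with the trend removed was 1.55. The values with the trend removed were 1.06 for Hdac10, 0.73 for Brd2 and 0.71 for Hdac5, all past the threshold. How GC content bears on the difference was not tested further.

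**Figure D4:**
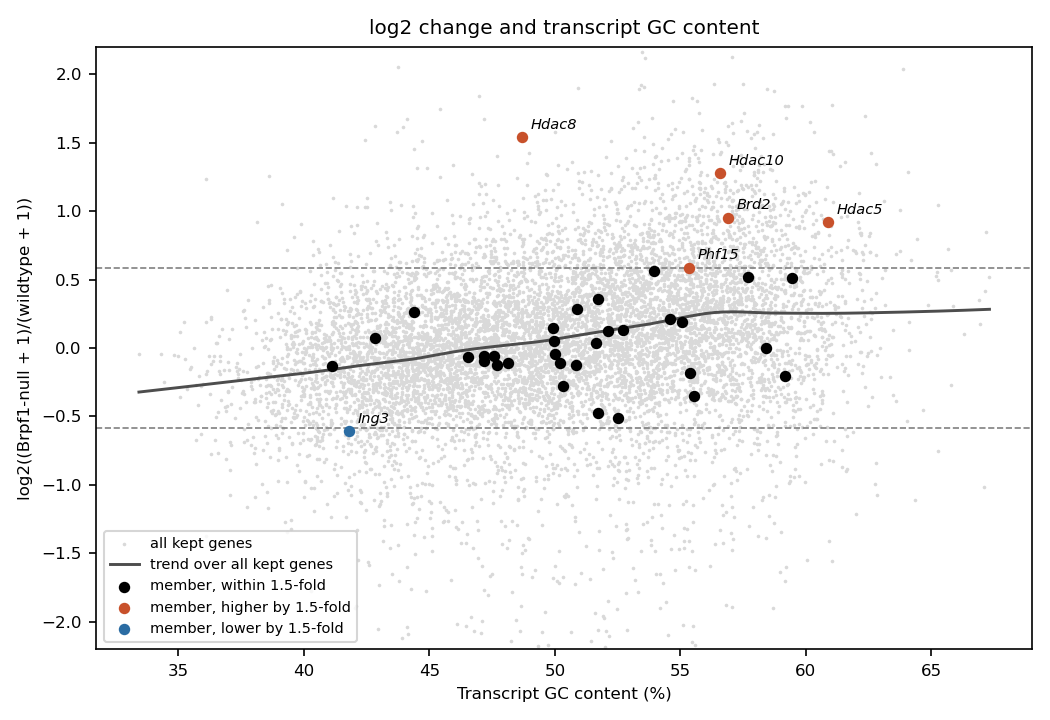
log2 change with a pseudocount of 1 against transcript GC content in percent for all kept genes with a transcript length (grey), their lowess trend (line) and the 37 members (n = 1 library each); 36 genes lie outside the plotted range. Hdac8 sits far above the trend at 48.7% GC, while Hdac10, Brd2, Hdac5 and Phf15 lie in the GC-rich range where the trend is above 0.

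The libraries also differed in the transcript levels of markers of other cell types. All 13 measured hepatocyte markers were lower in the Brpf1-null library, with a summed level over the 14 listed of 2110 and 555 RPKM, and so were all 10 erythroid markers (661 and 99.7 RPKM) and all 6 measured B-lineage markers (261 and 81.3 RPKM; Pax5 listed at 0 in both). Of the 8 macrophage markers 2 were higher and 3 lower (75.6 and 94.6 RPKM). Of the 4 measured megakaryocyte markers 3 were lower and Gp9 was within 1.5-fold (63.1 and 21 RPKM over the 6 listed). Itga2b, a megakaryocyte marker under the filter, went the other way, at 0.234 and 1.01 RPKM. Of 5 T cell markers Cd4 alone passed the filter, higher in the Brpf1-null library (1.71 and 5.11 RPKM over the list), with Cd3e listed at 0 in both. The LSK gate genes Kit (25.6 and 21.3 RPKM) and Ly6a (10.6 and 9.51 RPKM), and the progenitor gene Flt3 (22.9 and 33.1 RPKM), were within 1.5-fold, and Cd34 was higher (117 and 179 RPKM). Hdac8, Hdac6 and Phf16 are X-linked, and the sex-linked transcripts differed: Xist was at 0.319 and 0.781 RPKM and the Y-linked Ddx3y at 5.87 and 1.65 RPKM. In bulk samples fewer cells of a type and less RNA per cell cannot be told apart, and the part of these differences in the values of the 44 genes was not tested.

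The enzymes act in larger complexes, and 115 further genes of those complexes and of acetyl-lysine reading were listed by role. Of these, 113 were matched and 105 had a mean of at least 1 RPKM. By the same rule 6 were higher (5.71%), 5 lower (4.76%) and 94 within 1.5-fold, beside 14.1% and 9.42% of all genes, and their median log2 change was 0.06. Of the 14 TIP60 complex genes, Mrgbp (listed as 1600027N09Rik) was higher, at 1.84 and 5.06 RPKM. Of the 18 measured SAGA and ATAC genes, which form the complexes around GCN5, Supt3h was lower, at 12.1 and 5.76 RPKM. Taf10 was higher, at 8.32 and 15.2 RPKM, and its bounds are left out because its length, 4281 bases, looked too long. Of the 11 MSL and NSL genes, which accompany MOF, Msl1 was higher, at 4.28 and 8.87 RPKM, 2.08-fold (1.85 to 2.32), and Wdr5 just past the threshold, at 10.9 and 16.9 RPKM. With the GC trend removed Wdr5 was within 1.5-fold (0.52), and likewise with the length trend removed (0.53).

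Among the deacetylase corepressors, NuRD held 2 higher genes of 11 (18.2%), near the 14.1% of all genes. Mta2, a core NuRD subunit that binds HDAC1 and HDAC2, had 5.98 RPKM in wild-type and 25.0 RPKM in Brpf1-null cells, 4.17-fold higher (3.76 to 4.64). Mbd3, the NuRD scaffold, was at 19.4 and 31.6 RPKM, 1.63-fold higher (1.48 to 1.79), and its log2 change of 0.68 became 0.46, within 1.5-fold, with the GC trend removed. The NuRD median log2 change was 0.30, and 0.14 with the GC trend removed. Of the 12 SIN3 genes Sap130 was lower (3.65 and 2.05 RPKM), and of the 13 CoREST, NCoR and MiDAC genes Hmg20b was lower (4.87 and 1.53 RPKM); both had under 5 RPKM in each library and were named after their values were seen. Of the 19 measured readers, Cecr2, a bromodomain protein of ISWI remodellers, was at 4.78 and 0.650 RPKM, 7.35-fold lower (6.13 to 8.88). Mllt3, which encodes the YEATS-domain reader AF9, was at 5.05 and 1.92 RPKM, 2.63-fold lower (2.03 to 3.4). Cecr2 was also under 5 RPKM in each library and named after its value was seen. The 2 MEF2 genes and the 5 genes of acetyl-CoA supply and related enzymes that passed the filter lay within 1.5-fold.

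**Figure D5:**
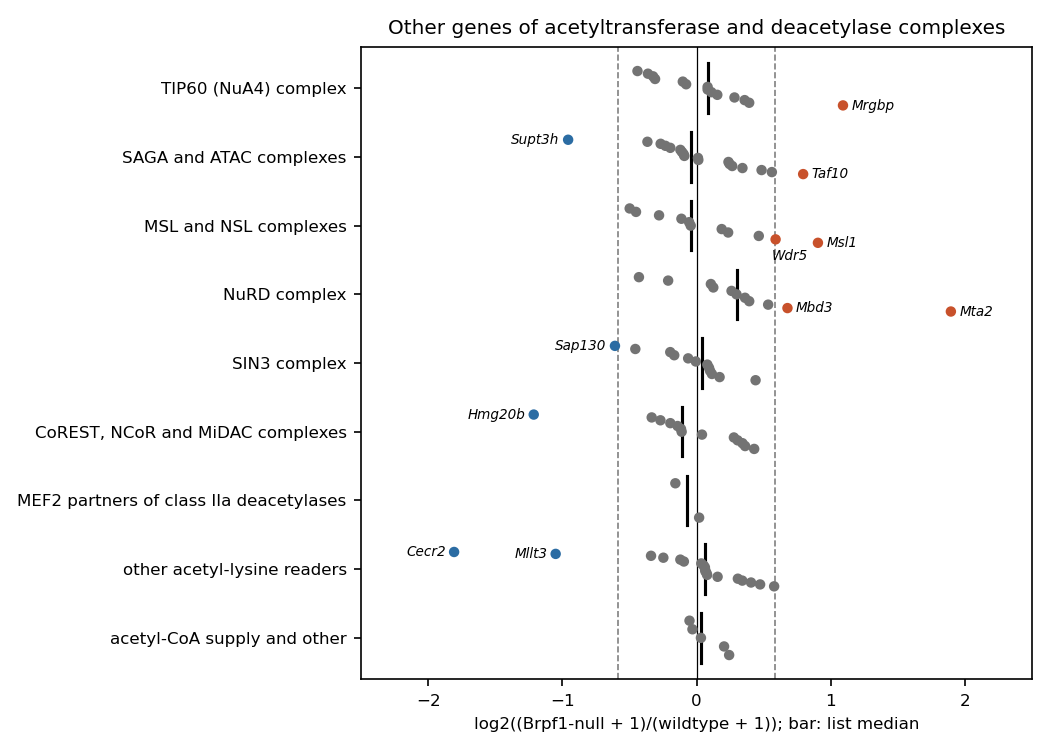
log2 change with a pseudocount of 1 for the 105 measured genes of acetyltransferase and deacetylase complexes, 1 row of points per list, ordered within a row by value (n = 1 library per genotype); vertical bars mark list medians and dashed lines 1.5-fold. Mta2 (1.90) and Cecr2 (−1.81) lie farthest from 0, and all list medians lie between −0.11 and 0.30.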

How the data were processed

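RNA from LSK cells (about 10000 per sample) was sequenced from oligo-dT-primed libraries, and reads were aligned with TopHat to mm9 (per the submitters' processing notes, which give no version); the sources used here name no annotation, strand or counting program. Values deposited for pair 1 are RPKM and those for pair 2 FPKM, per the file headers. The deposited fold change, a wild-type over Brpf1-null ratio, and its log2 were not used. All 20207 symbols were shared and 0 values differed between the tables, so 1 library per genotype was described without a test; the limma test set down for 2 libraries per genotype was not possible. Genes with a mean under 1 RPKM were left out of counts (10827 genes). The spacing of low values gave the library sizes, with which 58.9% of 3751 values came out as whole reads within 0.1 (22.4% with sizes raised by 5%). Lengths and GC content came from GENCODE M21 (GRCm38), matched for 98.1% of symbols. Trends on GC content and length were lowess fits (statsmodels 0.14.6). The procedure was tested on simulated data. Promoter windows are RefSeq's, with the most upstream window per gene. The members, gene lists and rules were chosen with earlier results of these data known. Named are all 44 members and the listed complex genes past 1.5-fold whose higher level was 5 RPKM or more; others are marked.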

Additional observations from a re-analysis of the deposited data

How the results depend on the processing

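No paired analysis was possible because both deposited tables held the same values, which leaves 1 library per genotype; for the same reason no replicate could be left out. The values without a pseudocount were added after the data were seen. The 5 higher and 1 lower members became 3 and 0 with a pseudocount of 5, 1 and 0 with the filter raised to 5 RPKM (fewer genes tested) and 2 and 0 at a fold of 2. The lower members became 3 with a pseudocount of 0.1, without a pseudocount and after centring, and 2 after quantile normalization. Hdac8 and Hdac10 kept their call in all 10 alternatives that tested them, Brd2 in 10 of 11 (not at a fold of 2), Hdac5 in 8 of 10, Ing3 in 7 of 10 and Phf15 in 4 of 10. The 6 higher complex genes became 10 with a pseudocount of 0.1 and without one, 3 with a pseudocount of 5 and 2 at a fold of 2; the 5 lower became 3 with a pseudocount of 5, 1 with the 5 RPKM filter and 3 at a fold of 2. Of the class medians, the non-MYST acetyltransferases went from −0.10 to 0.19 and class I deacetylases from 0.16 to 0.05 with that filter. After centring, which moved the median of all genes from 0.04 to −0.07 and the split of genes past 1.5-fold from 1323 higher and 884 lower to 961 and 1204, bromodomain readers were at −0.15 and class I deacetylases at 0.0453. The class IIa median of 0.51 was over 3 genes, which went both ways. It was 0.35 with a pseudocount of 5, 0.40 after centring, 0.42 after quantile normalization and 0.30 with the GC trend removed. The class IIb and IV median of 0.75 was over 2 genes, Hdac6 and Hdac10. It was 0.41 with a pseudocount of 5, 0.53 with no filter and 0.21, the value of Hdac6 alone, with the 5 RPKM filter. After centring it was 0.64, after quantile normalization 0.65, with the GC trend removed 0.56 and with the length trend removed 0.68. Beyond the alternatives' own construction, the cause was not tested. Among single members the sign turned for 4 of 37 after centring (Ing4, Hdac1, Sirt1 and Sirt7), 3 with the GC trend removed (Hat1, Ing4 and Sirt7), 2 after quantile normalization (Ing4 and Sirt7) and 1 with the length trend removed (Sirt1). Depth limits the ratios of Hdac9 (about 28 and 57 reads), Phf16 (45 and 39), Hdac8 (26 and 153) and Hdac11 (34 and 72), which had the widest counting intervals of the 44 genes relative to their lower bounds.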

Other observations

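Levels of the 44 genes ran against transcript length. Across them the wild-type RPKM and the transcript length had a Spearman rho of −0.547 (44 genes of 1 library, which share its depth and preparation), beside −0.442 over the 9257 genes with a length and a mean of at least 1 RPKM. The 7 members under 1 RPKM had a median transcript length of 6884 bases, against 2812 bases for the 31 within 1.5-fold. They include the long transcripts of the MOZ and MORF genes Myst3 (9077 bases) and Myst4 (6884 bases) and of the p300 gene Ep300 (9566 bases), whereas Crebbp, at 10820 bases, was at 4.0 RPKM. Across the 44 genes the levels in both libraries had a Spearman rho of 0.957.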
